A study of Homo sapiens with 8 samples.

Results

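NALM6 cells with the wild-type HMGN1 construct (WT), treated with doxycycline (DOX) or vehicle, make up 4 of the 8 RNA-seq libraries of a study of HMGN1 overexpression. They were chosen by their genotype and treatment labels. NALM6 is a long-established human cell line from a B-cell precursor leukemia. In all groups HMGN1 expression was to be induced by DOX at 100 ng/ml, and cells were exposed to DOX or vehicle for 6 hours. The groups are WT vehicle, WT DOX and the same treatments of cells with HMGN1 S20,24E (SE), a mutant that the labels call deficient in nucleosome binding. Each group has 2 libraries, lettered A and B and labelled biological replicates. The sources used here do not give what a letter shares, whether a line is a clone or a pool, or the promoter of the construct. The p-values therefore measure only the spread between these libraries.

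HMGN1 is a small, abundant nuclear protein of the HMGN family, whose members bind nucleosome core particles, loosen the compaction of chromatin and compete with linker histones. Its gene lies on chromosome 21, so that cells with an extra copy of that chromosome carry extra HMGN1. Work on B-lineage cells has linked HMGN1 overexpression to changes in histone marks and in transcription, and the series title names a global amplification of transcription as the outcome of interest.

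Values are FPKM, fragment counts scaled by transcript length and sequencing depth, in an unnormalized and a spike-in-normalized table. Spike-ins are synthetic RNAs added in equal amount to RNA from equal numbers of cells. Of 23713 rows, 11042 genes were kept: spike-ins and small RNA names were left out, and the mean unnormalized FPKM over the 8 libraries had to be at least 1. The cells carried B-lineage RNA, with 43 of 47 listed B-lineage genes kept and summed FPKM of 5377 to 5766 in the WT libraries. No T-cell marker (0 of 7) and no erythroid marker (0 of 6) was kept, with summed FPKM of at most 0.141 and 0.0938. Of the myeloid and fibroblast markers, LYZ and TAGLN alone were kept. In bulk RNA, a change in the share of cells with a transcript and a change in its level per cell cannot be told apart.

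HMGN1 RNA, the intended target, was not higher in the WT libraries labelled DOX. HMGN1 stood at 809.2 FPKM in vehicle and 792.9 in DOX of letter A, and at 796 in vehicle and 795.3 in DOX of letter B (unnormalized FPKM). All 4 values lie within a narrow band, and the DOX value was the lower one in both letters. On the spike-in scale HMGN1 went from 1021 to 973 FPKM in letter A and from 843 to 837 in letter B, so that the groups overlapped. The log2 fold change was -0.04 ± 0.31 (SE of the estimate, limma), with a 95% interval of -0.66 to 0.58. It became 0.10 without WT vehicle replicate A and 0.07 without WT DOX replicate B. Leaving out a library unbalances the letters, so the gap between the letters on the spike-in scale enters these values. Whether this row counts transcripts from the construct was not stated, so every statement below concerns libraries labelled DOX.

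The other HMGN genes, which encode related nucleosome-binding proteins, were as close. HMGN2 was at 469 and 474 FPKM (vehicle and DOX of letter A) and at 656 and 620 (letter B). HMGN3 was at 157 and 156 in letter A and at 144 and 143 in letter B. HMGN4 was at 57.6 and 57.8 in letter A and at 66.9 and 66.9 in letter B. HMGN5 was at 34.3 and 34.1 in letter A and at 42.8 and 40.8 in letter B. For HMGN2, HMGN3, HMGN4 and HMGN5 the distance between the letters exceeded the distance between DOX and vehicle in both letters. All 5 HMGN genes differed by less than 0.1 on the log2 scale in both letters, as did 69.2% of all kept genes in WT and 72.4% in SE cells.

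**Figure D1:**
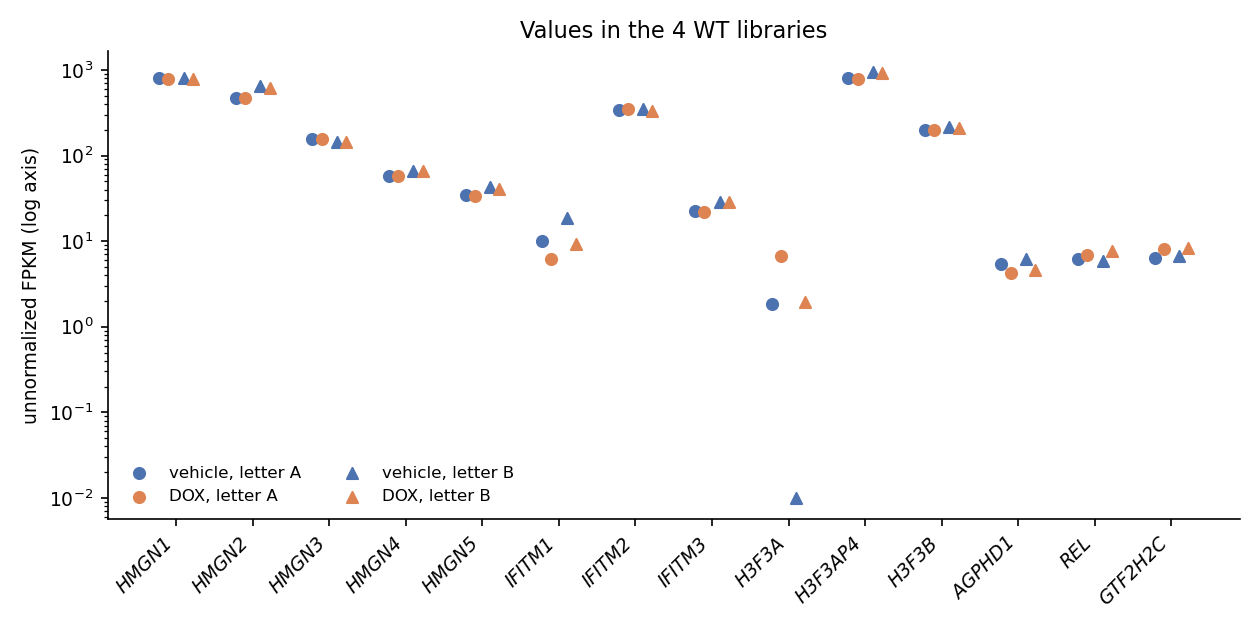
Unnormalized FPKM (log axis) of 14 genes in the 4 WT libraries; circles are letter A, triangles letter B, blue vehicle and orange DOX. HMGN1 lies between 792.9 and 809.2 in all 4 libraries, IFITM1 is lower in DOX in both letters, and H3F3A is the row with the widest spread, from 0.01 to 6.78.

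RNA per cell was compared through the median of log2(spike-in-normalized FPKM + 0.1) over the kept genes. The library medians were 4.27 (vehicle) and 4.24 (DOX) in letter A and 4.06 (vehicle) and 4.02 (DOX) in letter B. The DOX median was lower in both letters, by less than the gap between the letters, and the groups overlapped. Gene by gene, the median log2 fold change was -0.03, within letter -0.02 (A) and -0.05 (B), and 75.7% of kept genes had a negative value. A two-sided exact permutation test of the library medians gave p = 0.667, where the smallest p that 2 against 2 libraries allow is 0.333. Without WT vehicle replicate A the median became 0.07, and without WT DOX replicate B 0.09. Leaving out a library unbalances the letters, so the gap between the letters enters these values. In the SE libraries the median was -0.24 on this scale, within letter -0.35 (A) and -0.13 (B). In the unnormalized table, which removes differences in total RNA, the WT median was -0.00 and 51.6% of genes were below 0.

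No single gene passed the main test for a response to DOX, which did not take libraries of a letter as pairs. Fits with a replicate block, given at the end, did call genes. limma, fitted to the normalized values of all 8 libraries with Benjamini-Hochberg adjustment, called 0 of 11042 genes (0% called). The smallest adjusted p (limma) was 0.144. An unadjusted p under 0.05 was found for 12 genes (0.109%), far below the share of 0.05 that no response at all would give. With the letters not paired, the gap between them counts as spread, which makes the p-values of this fit conservative. The 0 calls therefore do not show that DOX had no effect. The median 95% interval of a gene, before adjustment, reached 0.47 to either side on the log2 scale. Larger fitted changes were not called after adjustment either, such as those of IFITM1 (-0.88) and H3F3A (2.57). Leaving out 1 WT library gave 15 calls without WT vehicle replicate A, 18 without WT DOX replicate A, 7 without WT vehicle replicate B and 12 without WT DOX replicate B. In those fits a lone library stands for its group and is assumed to vary like the others. The letters are then unbalanced, so the gap between the letters enters the estimates.

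Differences between the letters were larger than those between the treatments. Within a letter, DOX minus vehicle was taken as the difference of log2(unnormalized FPKM + 0.1), centred on its median over the kept genes. The robust SD of these differences over genes was 0.054 in letter A and 0.080 in letter B. The same measure between letter A and letter B was 0.184 in vehicle and 0.189 in DOX. Of all kept genes, 86.5% lay within 0.1 of the centre in letter A and 76.1% in letter B. Among the 765 genes with a mean of at least 100 FPKM, 97.6% and 94.5% did.

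The libraries differed in depth. The files hold no read counts, but values of low genes come in steps, and the value of 1 fragment was 1.32 times as large in WT vehicle B as in WT vehicle A, and 1.29 times as large in WT DOX B as in WT DOX A. The libraries of letter A were therefore the deeper ones. Between vehicle and DOX the ratio was 1.05 in letter A and 1.08 in letter B. Absolute depth was not given.

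**Figure D2:**
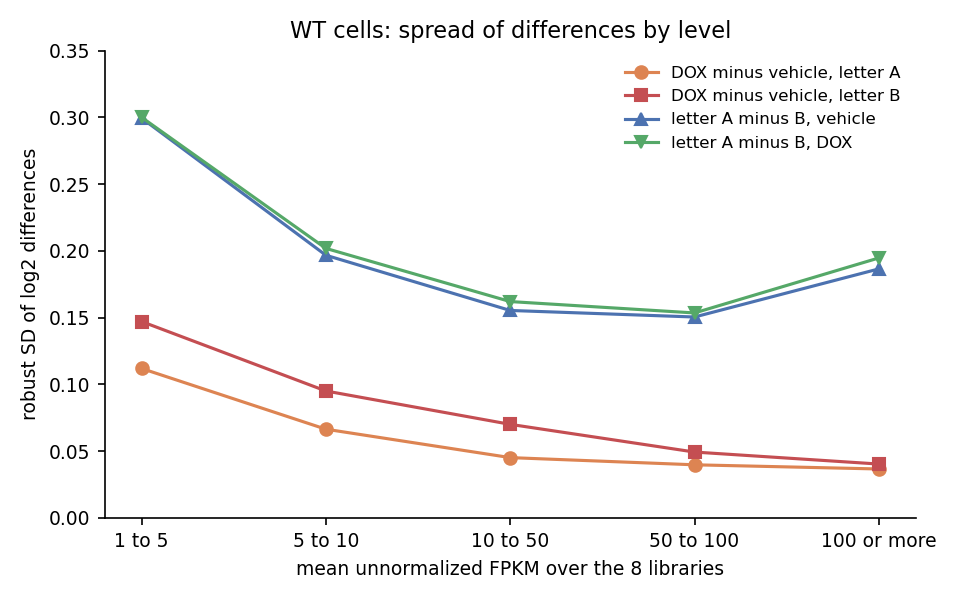
Robust SD over genes of log2 differences in the WT libraries (vertical axis) by class of mean unnormalized FPKM (horizontal axis). Orange and red lines are DOX minus vehicle within letter A and letter B, and blue and green lines are letter A minus letter B within vehicle and within DOX; the letter lines lie above the treatment lines in every class.

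The small differences of letter A did not recur in letter B. Over 11042 genes, 5386 (48.8%) had the same sign in both letters. Pearson's r between the letters was -0.12 and Spearman's rho -0.02, across genes, which are not independent replicates and share each library's depth and composition. Past 0.1, 156 genes (1.41%) were higher in DOX in both letters, 211 (1.91%) were lower in both and 356 moved in opposite directions. Past 0.2, 25 (0.226%) were higher and 49 (0.444%) lower in both. Past 0.3, the counts were 10 (0.0906%) higher, 13 (0.118%) lower and 27 opposite. In the normalized table they were 11 higher and 10 lower with centring, and 6 higher and 16 lower without it. In the SE libraries 42.6% of genes had the same sign, 148 (1.34%) were higher and 138 (1.25%) lower past 0.1, and 8 (0.0725%) were higher and 4 (0.0362%) lower past 0.3. These counts are descriptions without a test.

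**Figure D3:**
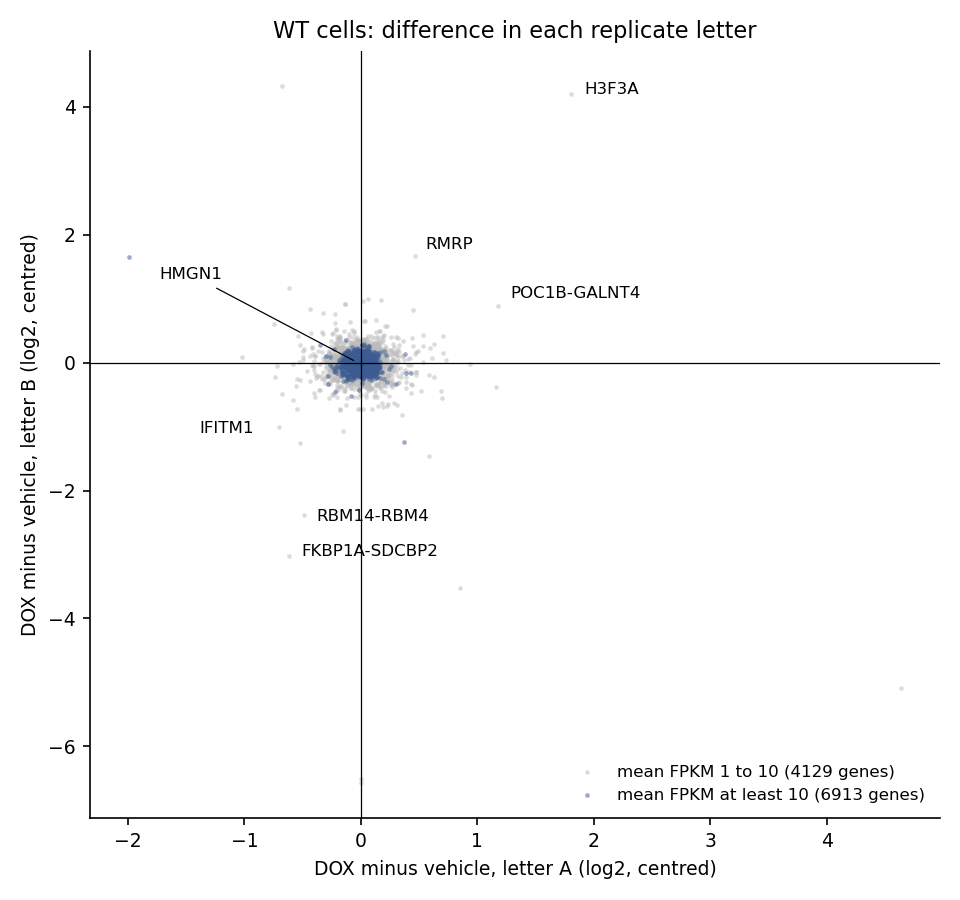
DOX minus vehicle in letter A (horizontal) against letter B (vertical) for the 11042 kept genes, in centred log2 units; grey points are genes with a mean under 10 FPKM and blue points those with at least 10. The cloud is round, with Pearson's r of -0.12, and the labelled genes in the upper right and lower left corners are mostly low-level rows; the size of a difference from a 0.01 entry, as for H3F3A and FKBP1A-SDCBP2 in letter B, depends on the pseudocount.

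In letter B, long transcripts and transcripts poor in G and C stood slightly higher in DOX. Of the kept genes, 10186 (92.2%) could be matched to a GENCODE transcript by symbol. Spearman's rho of the letter B difference was 0.36 with transcript length and -0.38 with GC content, and in letter A 0.10 and 0.09. From the shortest to the longest of 5 equal classes, the letter B median went from -0.04 to 0.05, and in letter A from -0.01 to 0.01. The part of length and GC content in any gene's difference was not tested.

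The 23 rows past 0.3 in both letters were low. Their median mean FPKM was 1.49, against 15.2 over all kept genes, and 4 of the 23 (17.4%) had a mean of at least 5, against 79.1%. Read-through rows, which name transcripts running from a gene into its neighbour, made up 3 of the 23 (13.0%, against 0.353% of kept genes). Genes with names starting HIST, 22 of those kept, made up 2 (8.70%, against 0.199%), and 2 (8.70%, against 0.109%) stood at the table's 0.01 entry in a WT library. Just inside the limit lay TTC30B (0.30) and GDPD3 (-0.31), and just outside BLOC1S1-RDH5 (0.30) and TAS2R5 (-0.29), each by its smaller letter. No gene with a mean of at least 10 FPKM was past 0.3 in both letters.

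IFITM1 was the row past 0.3 with the highest mean level, and it was lower in DOX. It encodes an interferon-induced membrane protein that hinders the entry of viruses into cells. IFITM1 stood at 10.1 FPKM in vehicle and 6.19 in DOX of letter A, and at 18.8 in vehicle and 9.33 in DOX of letter B. Both DOX values lay below both vehicle values in either table, as for 5.94% of kept genes in the unnormalized and 5.1% in the normalized one. The log2 fold change was -0.88 ± 0.26 (SE of the estimate, limma), unadjusted p = 0.00195, which did not pass after adjustment (adjusted p = 1.0 by limma). Leaving out 1 WT library moved it between -0.54 and -1.21: the adjusted p (limma) was 0.0113 without vehicle replicate A, 0.991 without DOX replicate A, 0.999 without vehicle replicate B and 0.0842 without DOX replicate B. In SE cells IFITM1 went from 9.13 to 9.83 FPKM (A) and from 4.30 to 3.67 (B), and the difference of the DOX effects between WT and SE was -0.58 (limma, adjusted p = 0.814).

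The neighbouring IFITM genes did not show this. IFITM2 stood at 340 and 355 FPKM (vehicle and DOX of letter A) and at 352 and 334 (letter B). IFITM3 stood at 22.3 and 21.7 in letter A and at 28.7 and 28.8 in letter B. The IFITM genes are similar in sequence, and reads can be divided between them. IFITM1 made up 2.72% of the 3 rows' sum in vehicle of letter A and 4.71% in letter B, so the sum could not show whether reads moved between rows.

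The promoters of IFITM1 and IFITM3 are shown because these neighbours are both interferon-responsive while IFITM1 alone was past 0.3. They are the 250 bases before the start site in RefSeq (GRCh38.p14, IFITM1 at chr11:313790-314039 on the plus strand, IFITM3 at chr11:320861-321110 on the minus strand). Capitals mark the sequence GAAA, any 2 bases, GAAA, the core of the interferon-stimulated response element bound by interferon-activated transcription factors, searched on both strands.
IFITM1: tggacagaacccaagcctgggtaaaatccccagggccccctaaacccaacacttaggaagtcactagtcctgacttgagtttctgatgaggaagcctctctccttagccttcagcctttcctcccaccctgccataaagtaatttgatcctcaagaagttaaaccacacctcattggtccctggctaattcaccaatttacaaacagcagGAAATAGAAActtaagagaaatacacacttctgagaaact
IFITM3: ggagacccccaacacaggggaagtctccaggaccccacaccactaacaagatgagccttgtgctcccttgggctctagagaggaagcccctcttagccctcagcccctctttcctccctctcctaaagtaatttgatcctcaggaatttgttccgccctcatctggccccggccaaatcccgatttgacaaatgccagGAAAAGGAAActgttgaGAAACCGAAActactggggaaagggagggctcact
IFITM1 holds 1 match, ending 30 bases before the start site, and IFITM3 holds 2. The motif occurs in 3.02% of 35116 such windows and in 12 of the 28 kept interferon-response genes that have one. IFITM2 had no window. A match is a description of letters, not a bound site.

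Other interferon-response genes stayed close to the centre. Of 41 listed genes 37 were kept, none was called by limma, and past 0.1 in both letters SAMHD1 alone was higher and IFITM1 alone lower (all kept genes: 1.41% higher, 1.91% lower). Their median difference was 0.01 in letter A and -0.02 in letter B. ISG15, a ubiquitin-like modifier, stood at 25.2 and 25.5 FPKM in letter A and at 24.3 and 24.9 in letter B.

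H3F3A, which encodes the replacement histone H3.3, had the largest log2 fold change among the 23 rows and the smallest p of all kept genes. H3F3A was listed at 1.86 FPKM in vehicle and 6.78 in DOX of letter A, and at 0.01 in vehicle and 1.92 in DOX of letter B. DOX was higher in both letters, but on the spike-in scale DOX of letter B (2.11) lay below vehicle of letter A (2.42), so the groups overlapped. The fitted log2 fold change was 2.57 ± 0.52 (SE of the estimate, limma), adjusted p = 0.144, and its size depends on the 0.01 entry and the pseudocount. Leaving out WT vehicle replicate B, the library with that entry, gave 0.80, and the gene was not called. Leaving out another WT library gave 4.33 without vehicle replicate A, 1.57 without DOX replicate A and 3.56 without DOX replicate B. The gene was called in these 3 fits, but each keeps the 0.01 entry and has a group with a lone library. Such calls do not rest on the spread between replicates of that group. The row was also higher in DOX in both SE letters, from 1.90 to 5.04 (A) and from 1.77 to 5.23 (B).

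H3F3AP4, a pseudogene of H3F3A, was listed far higher, and reads of such near-identical sequences can be divided between rows. H3F3AP4 stood at 798 and 785 FPKM in letter A and at 946 and 925 in letter B. H3F3A made up 0.233% and 0.855% of the sum of both rows in letter A, and 0.00106% and 0.207% in letter B. With such small shares, the sum could not show whether reads moved between the rows. H3F3B, the other H3.3 gene, stood at 201 and 200 FPKM in letter A and at 217 and 212 in letter B.

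Several other rows of the 23 also have partner rows, which were chosen after the values were seen. POC1B-GALNT4, a read-through row, stood at 0.493 and 1.24 FPKM in letter A and at 0.569 and 1.13 in letter B. GALNT4, a glycosyltransferase gene within the same locus, stood at 1.84 and 1.23 in letter A and at 2.26 and 1.87 in letter B. The read-through row was higher and GALNT4 lower in DOX in both letters, and their sum differed by 0.08 in each. POC1B-GALNT4 was also higher in DOX in both SE letters, from 0.563 to 1.28 (A) and from 1.34 to 2.08 (B).

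FKBP1A-SDCBP2 and RBM14-RBM4 are read-through rows that were lower in DOX. FKBP1A-SDCBP2 stood at 2.35 and 1.498 FPKM in letter A and at 0.801 and 0.01 in letter B. Its fitted log2 fold change was -1.46 (limma, adjusted p = 1.0), and the size depends on the 0.01 entry of WT DOX replicate B. Within letter A, where this row has no such entry, the centred difference was -0.62. Without WT DOX replicate B the fit gave 0.24, but it then sets DOX of letter A against vehicle of both letters. RBM14-RBM4 stood at 6.90 and 4.88 in letter A and at 5.53 and 0.981 in letter B. In SE cells RBM14-RBM4 went from 1.75 to 7.22 (A) and from 8.57 to 8.63 (B), and FKBP1A-SDCBP2 from 1.59 to 1.10 (A) and from 1.86 to 1.71 (B). In vehicle the FKBP1A-SDCBP2 and RBM14-RBM4 rows made up at most 1.19% and 4.77% of the sum with their component genes, too little for the sum to show whether reads moved. SDCBP2, a component at low level, was listed at 0.01 and 0.145 in letter A and at 0.316 and 0.807 in letter B, higher in DOX in both. The other component, FKBP1A, was at 196 and 195 in letter A and at 186 and 181 in letter B. In SE cells SDCBP2 was lower in DOX in both letters. PLSCR3, a phospholipid scramblase gene, stood at 2.99 and 2.05 in letter A and at 1.15 and 0.424 in letter B, while C17orf61-PLSCR3 stood at 3.36 and 4.63 in letter A and at 5.52 and 6.58 in letter B. PLSCR3 was lower and C17orf61-PLSCR3 higher in DOX in both letters, and their sum differed by 0.07 in each.

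Among gene copies, GTF2H2C was higher and SMN2 and RNF5 were lower in DOX. GTF2H2C, a copy of the gene of a TFIIH subunit, stood at 6.36 and 8.19 FPKM in letter A and at 6.65 and 8.42 in letter B. RNF5, a ubiquitin ligase gene, stood at 1.43 and 0.922 in letter A and at 1.87 and 1.22 in letter B. SMN2, which encodes the survival motor neuron protein as SMN1 does, lay just outside 0.3, at 30.1 and 24.8 in letter A and at 27.9 and 21.9 in letter B. SMN2 summed with SMN1 differed by 0.03 (A) and -0.14 (B). GTF2H2C and RNF5 made up at most 6.28% and 4.18% of the sum with their copies in any WT library, so their sums are not given. Whether the division of reads between copies accounts for these differences was not tested.

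**Figure D4:**
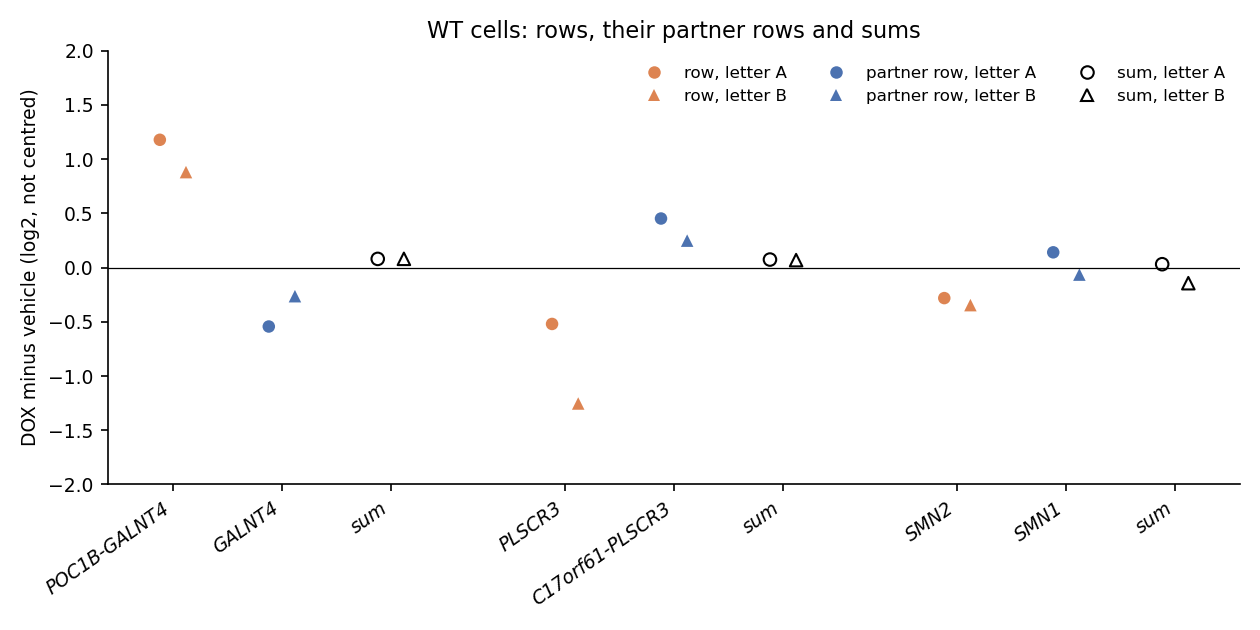
DOX minus vehicle in log2 units (vertical axis, not centred) for 3 rows (orange), their partner rows (blue) and the sums of both (open), letter A as circles and letter B as triangles. The rows run from -1.25 to 1.18 and the sums from -0.14 to 0.08.

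Of the rows past 0.3 with no listed partner, AGPHD1, also known as HYKK, a hydroxylysine kinase gene, was the one with a mean above 5 FPKM besides IFITM1. It stood at 5.46 FPKM in vehicle and 4.23 in DOX of letter A, and at 6.24 in vehicle and 4.60 in DOX of letter B. Both DOX values were below both vehicle values, and the log2 fold change was -0.42 ± 0.20 (SE of the estimate, limma, adjusted p = 1.0). BATF3, a leucine zipper transcription factor gene, was higher in DOX in all 4 letter comparisons, at 1.19 and 1.51 (WT A), 0.915 and 1.22 (WT B), 0.519 and 0.721 (SE A) and 0.951 and 1.23 (SE B). With H3F3A and POC1B-GALNT4 it was 1 of 3 genes past 0.3 upward in both constructs, which are 30% of the 10 in WT and 37.5% of the 8 in SE. No gene was past 0.3 downward in both constructs.

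Among genes with a mean of at least 10 FPKM, 14 of 6913 (0.203%) were past 0.1 upward in both letters and 33 (0.477%) downward, and past 0.2 none was upward (0%) and 3 (0.0434%) were downward. RGP1, a gene of vesicle transport, was at 11.2 and 12.9 FPKM in letter A and at 9.47 and 10.7 in letter B. PCGF1, a Polycomb group gene, was at 16.5 and 18.5 in letter A and at 14.9 and 16.7 in letter B. Of the 10 largest differences downward, SMN2, ATP5EP2, SNURF, NACA2 and RPS10P7 are rows with a near copy or an overlapping gene. TMEM160, which encodes a mitochondrial membrane protein, was at 24.5 and 20.1 in letter A and at 16.5 and 14.2 in letter B. None of the 10 largest differences in either direction was called by limma, where their lowest unadjusted p was 0.139.

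Replication-dependent histone genes, which supply histones during S phase and whose mRNAs mostly lack poly(A) tails, were the list with the widest scatter. Of 58 listed genes 20 were kept, and 5 of them were past 0.1 upward in both letters and none downward (all kept genes: 1.41% and 1.91%). Their median difference was -0.04 in letter A and 0.22 in letter B, and 2 of the 20 lay within 0.1 in both. In SE cells the list's median was 0.27 (A) and 0.11 (B). HIST1H4E was at 1.29 and 1.80 FPKM in letter A and at 0.784 and 1.46 in letter B. HIST1H2AJ was at 1.74 and 2.56 in letter A and at 1.82 and 2.49 in letter B. At the level of these rows, a mean of 1 to 5 FPKM, 118 of 2310 kept genes were past 0.1 upward in both letters and 142 downward. None was called by limma, and several, such as HIST2H4A and HIST2H4B, are identical copies that are not separate measurements.

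In the NF-kappaB list, 3 of the 14 kept genes were past 0.1 upward in both letters and none downward (all kept genes: 1.41% and 1.91%). REL, the c-Rel subunit active in B cells, was at 6.11 and 6.97 FPKM in letter A and at 5.79 and 7.76 in letter B. RELB, a subunit of the noncanonical pathway, was at 1.39 and 1.57 in letter A and at 1.04 and 1.503 in letter B. BCL3, an atypical inhibitor of the IkappaB family, was at 0.687 and 0.763 in letter A and at 0.694 and 0.944 in letter B. BCL3 thus lay below 1 FPKM in every WT library, and its values in SE letter A were 1.81 and 1.91. Such joint differences are more frequent at low levels. Past 0.1 in both letters, 118 of 2310 genes with a mean of 1 to 5 FPKM were higher and 142 lower. At a mean of 5 to 10, the class of REL, 24 of 1819 were higher and 36 lower. For all 3, both DOX values were above both vehicle values in the unnormalized table, as for 6.29% of kept genes. Their order in the normalized table, where this held for 1.43% of kept genes, is not given here. The log2 fold change of REL was 0.26 ± 0.21 (SE of the estimate, limma, adjusted p = 1.0). Of the feedback genes induced by NF-kappaB, NFKBIA was at 25.1 and 25.1 in letter A and at 30.6 and 29.5 in letter B, and TNFAIP3 was at 8.58 and 8.75 in letter A and at 22.9 and 22.4 in letter B. The list's median was 0.04 in letter A and -0.04 in letter B.

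The further lists tied to chromatin and to growth held few differences past 0.1 in the same direction in both letters. MYC, the growth regulator, was at 215 and 219 FPKM in letter A and at 246 and 240 in letter B. Of the 6 kept genes of HMGA, HMGB and linker histone proteins, which also shape chromatin, none was past 0.1 in the same direction in both letters. EZH2, the H3K27 methyltransferase of Polycomb repressive complex 2, was at 62.6 and 62.2 in letter A and at 67.9 and 66.3 in letter B. Of 15 kept genes of that complex and of the H3K27 enzymes, 14 lay within 0.1 in both letters and none was past 0.1 in the same direction. Within 0.1 in both letters were also 39 of the 43 kept B-lineage genes (90.7%) and 37 of the 39 kept G1/S and replication genes (94.9%), against 69.2% of all kept genes. These lists also hold higher-level genes, and the share within 0.1 rises with level. Below 69.2% were the MYC network (6 of 10 kept genes, 60%) and the HMGA, HMGB and linker histone list (4 of 6, 66.7%).

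Lists of short, abundant transcripts had medians below 0 in both letters. The 76 kept respiratory chain genes had a median of -0.02 in letter A and -0.05 in letter B, and the 78 cytosolic ribosomal protein genes -0.01 and -0.06. In SE cells the respiratory chain median was -0.02 (A) and 0.06 (B). The 77 mitochondrial ribosomal protein genes had -0.02 and -0.03, with MRPL41 the only member past 0.1 downward in both letters. The shortest of the 5 length classes of all matched transcripts had medians of -0.01 (A) and -0.04 (B), and the part of transcript length in these list medians was not tested.

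**Figure D5:**
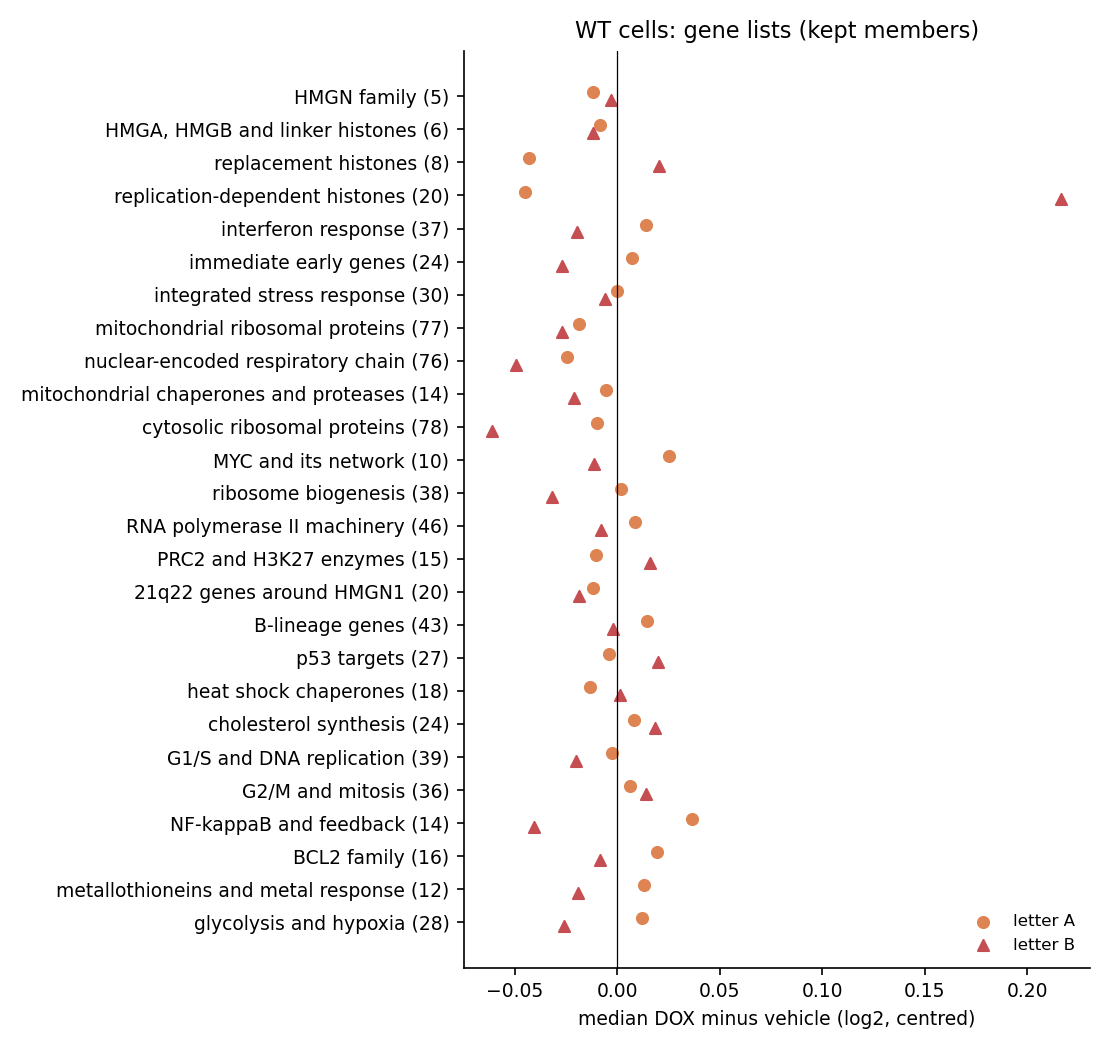
Median DOX minus vehicle (centred log2 units) over the kept members of each gene list with at least 5 of them, letter A as circles and letter B as triangles, with the number of members in brackets. All medians lie between -0.06 and 0.04 except that of the replication-dependent histones in letter B at 0.22.

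Immediate early genes, which respond within an hour to many stimuli, held few genes past 0.1 in the same direction in both letters. Of 24 kept genes none was past 0.1 upward in both letters and DUSP2 alone was downward (all kept genes: 1.41% and 1.91%). DUSP2 was at 5.12 and 4.65 FPKM in letter A and at 5.29 and 4.73 in letter B. Of the 20 kept 21q22 genes around HMGN1, SH3BGR alone was past 0.1 in the same direction in both letters, downward (all kept genes: 1.91%), at 1.86 and 1.64 in letter A and at 1.57 and 0.911 in letter B. Lists of the integrated stress response (30 kept), p53 targets (27), heat shock chaperones (18), mitochondrial chaperones and proteases (14), cholesterol synthesis (24) and G2/M genes (36) had no member past 0.1 in the same direction in both letters. The same held for metallothioneins and other metal-response genes (12), glycolysis (28), BCL2 family (16), MYC network (10), ribosome biogenesis (38) and RNA polymerase II machinery (46). With all kept genes at 1.41% and 1.91%, lists of these sizes can lack such members without differing from other genes.

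Whether WT cells responded to DOX differently from SE cells was tested as the difference of both effects. limma called 1 of 11042 genes (0.00906%), INO80B-WBP1, and 16 (0.145%) had an unadjusted p under 0.05. INO80B-WBP1 is a read-through row, listed at 0.987 and 0.580 FPKM in WT letter A and at 0.01 and 2.11 in WT letter B, opposite directions in the letters. In SE cells it was at 4.54 and 0.01 in letter A and at 0.642 and 0.01 in letter B. The fitted difference of effects was 4.69 ± 0.77 (SE of the estimate, limma, adjusted p = 0.00409), and its size depends on the 0.01 entries. The gene was not called with the unnormalized table, equal medians, pseudocount 1, no filter or small RNA names kept. It was called with a replicate block and in each fit that left out 1 WT library, but not with the block and equal medians. Leaving out 1 WT library gave 9 calls without vehicle replicate A, 11 without DOX replicate A, 4 without vehicle replicate B and 11 without DOX replicate B. For HMGN1 the difference of the DOX effects between WT and SE was 0.21 ± 0.44 (SE of the estimate, limma, adjusted p = 0.814). Its unnormalized level in SE cells was 1427 and 1421 FPKM in letter A and 1066 and 1061 in letter B, above the WT values.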

How the data were processed

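The authors deposited FPKM in an unnormalized and a spike-in-normalized table. The submitters' processing notes name the hg19 build, Cufflinks 2.0.0 and HISAT. The normalization method was not given in the sources used here. RNA from equal cell numbers received 1 µl of the spike-in mix diluted 1000-fold and was made into poly(A) libraries, per the labels' protocols. Within a library the normalized values were close to a constant multiple of the unnormalized ones (median 1.26 and 1.24 in WT vehicle and DOX of letter A, 1.08 and 1.05 in letter B). The unnormalized table has 631 to 944 entries of exactly 0.01 per library. Reads of copies, overlapping and read-through genes can be divided arbitrarily, and the counting is not known to use strand.

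FPKM are no counts, so limma 3.58.1 in R 4.3.3 (mean-variance trend, 2-sided) was fitted to log2(normalized FPKM + 0.1) of all 8 libraries as 4 group means, with Benjamini-Hochberg adjustment at 0.05. This fit was also run on simulated data that held no gap between letters, so that run does not cover such a gap. Fold changes on this scale understate low genes. Genes kept had no small RNA name (MIR, SNOR, SCARNA, RNU, RN7, RNA5) and a mean of at least 1. Robust SD is the scaled median absolute deviation. Named genes were the kept HMGN genes, the 10 largest rises and falls by the smallest of 4 within-letter differences (both tables), the same at a mean of at least 10, called genes and the 3 list members of smallest p; others were chosen after their values were seen. Some genes that the rule selects are not reported here. The members and lists were chosen with earlier results of these data known. Alternatives were the other table, equal library medians, pseudocount 1, other filters, a replicate block and leaving out libraries.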

Additional observations from a re-analysis of the deposited data

Results flagged for a closer look

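INO80B-WBP1 was called for a difference between the effects of DOX in WT and SE cells (limma, difference 4.69, adjusted p = 0.00409). Its fitted log2 fold changes were 1.46 in WT and -3.23 in SE. The row stood at 0.987 and 0.580 FPKM (vehicle and DOX) in WT letter A, at 0.01 and 2.11 in WT letter B, at 4.54 and 0.01 in SE letter A and at 0.642 and 0.01 in SE letter B. The value in 3 of these 8 libraries is the table's 0.01 entry. The call was absent with the unnormalized table, equal medians, pseudocount 1, no filter and small RNA names kept. It was present with a replicate block and in each fit that left out 1 WT library, and absent with the block and equal medians. The row's mean is too low for it to be tested among genes with a mean of at least 10 FPKM.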

How the results depend on the processing

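With the unnormalized table, equal medians, pseudocount 1, a mean of at least 10 FPKM, no filter or only the 4 WT libraries, limma called 0 genes for DOX in WT, as in the reported fit. Keeping small RNA names gave 8 calls. Leaving out 1 WT library gave 7 to 18. For the difference between WT and SE (1 call), the unnormalized table, equal medians, pseudocount 1, a mean of at least 10 and no filter each gave 0, small RNA names kept gave 9, and leaving out 1 WT library gave 4 to 11.

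Same-letter libraries deviated together from their group means (correlation 0.757 in WT and 0.720 in SE over genes), but there are only 2 pairs per construct and the labels do not say what a letter shares. With a replicate block limma called 15 genes in WT and 29 for the difference. With the replicate block and equal medians the median 95% half-width fell from 0.47 to 0.0987, and it called 2 in WT (H3F3A and IFITM1, limma adjusted p = 0.0144 for both) and 0 for the difference, with only WT libraries besides 12 in WT, and with a mean of at least 10 besides, an alternative chosen after seeing the data, 0 in WT and 3 for the difference.

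The WT median change of -0.03 ranged from -0.150 to 0.089 when 1 library was left out, and kept its sign otherwise. The 23 genes past 0.3 in both letters became 11 with pseudocount 1 and 0 with a mean of at least 10. From 10 up and 13 down, they became 11 up and 10 down with the normalized table, and 6 up and 16 down there without centring. HMGN1 ranged from -0.18 to 0.10 when 1 library was left out, and FKBP1A-SDCBP2 from -3.15 to 0.24. Leaving out a library unbalances the letters, so the gap between the letters enters such ranges. The causes were not tested. Depth per library is unknown, and 2 libraries a group limit the precision.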
